A study of Homo sapiens with 12 samples.

Results

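FAS, TNFRSF10A, TNFRSF10B, TNFRSF10D, BBC3, PMAIP1, BAX, AEN, TP53I3 and FDXR are targets of the tumour suppressor p53 in the death-receptor and mitochondrial apoptosis pathways. These 10 genes were taken by symbol from the 25365 names of a gene expression table made from A549 cells, a human lung adenocarcinoma line, and all 10 were among the 11881 genes tested, those that averaged 1 FPKM or more (fragments per kilobase of a transcript and per unit of mapped reads). Wild-type and PARP3-/- cells were each exposed to the vehicle DMSO or to 1 µM pyridostatin, a small molecule that stabilizes G-quadruplex DNA, for 24 h before RNA isolation. Each of the 4 groups had 3 libraries, called biological triplicates in the study's methods, and p-values therefore measure the spread between these cultures. PARP3-/- cells were made with Cas9 guides and cloned by dilution, so a difference between the genotypes cannot be told apart from a difference between a clone and the parental line.

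p53 is a transcription factor that is stabilized after DNA damage and raises death genes that act at the cell surface and others that act at mitochondria. Death receptors such as FAS and the TRAIL receptors bind a ligand outside the cell and recruit FADD and caspase-8, whereas BH3-only proteins such as PUMA (BBC3) and NOXA (PMAIP1) block the anti-apoptotic BCL2 proteins and so free BAX to open the outer mitochondrial membrane.

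Pyridostatin raised 9 of the 10 genes when both genotypes were averaged, where 7.71% of all tested genes rose and 6.24% fell. PMAIP1 was the exception. FDXR, BBC3 and FAS had the largest differences, with means 1.65 to 1.99 times those with vehicle in either genotype, and the other 6 rose by less. With vehicle, FAS, TNFRSF10B and TP53I3 were already higher in the libraries labelled PARP3-/- than in wild type, as were 6.40% of all tested genes. No gene of the 10 had a response to pyridostatin that differed between the genotypes after adjustment.

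The PARP3 transcript was not lower in the libraries labelled PARP3-/-. It was at 3.83, 3.40 and 3.96 FPKM in wild type with vehicle and at 4.92, 4.07 and 4.25 FPKM in PARP3-/- with vehicle, and at 3.74, 3.57 and 4.05 FPKM against 4.73, 4.71 and 4.30 FPKM with pyridostatin. Averaged over treatments it was higher in PARP3-/- (log2 fold change 0.21, adjusted p = 0.0154 by limma). The values are for the whole gene, so they do not check a deletion of part of it. Wild-type vehicle replicate 2 had the highest sum of FPKM values, 563470 against 492840 to 525120 in the other 11 libraries. It was the highest of its group for 5 of the 10 genes (BBC3, BAX, AEN, TP53I3 and FDXR) and the lowest for 4 (the 3 TRAIL receptors and PMAIP1), and calls that changed without it are named beside the results. Relative depth, read from the steps between low values, spanned 1 to 1.42 between libraries, and absolute depth is unknown. Of the epithelial markers, 6 of 6 averaged 1 FPKM or more, with the 6 summing to 6912 to 8630 FPKM per library. Of the lung epithelial markers (NKX2-1, SFTPC, SFTPB and NAPSA) 0 of 4 reached that level, as did 0 of 4 leukocyte and 0 of 4 endothelial markers and 1 of 4 fibroblast markers (COL1A1, at 1.08 FPKM). In bulk RNA, fewer cells that express a gene and less RNA per cell cannot be told apart.

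Promoter windows (RefSeq, GRCh38.p14) were found for 7 of the 10 genes, in 10 windows because some genes have several starts; no window was at hand for TNFRSF10A, TNFRSF10B and TNFRSF10D. Each window was searched on both strands for the decamer unit of the p53 response element, since the genes are grouped as p53 targets. A perfect decamer was in 3 of the 10 windows, 1 each for AEN, FAS and FDXR, and in 6.63% of all 35116 windows. The matches are printed 5′ to 3′ on the gene's strand with the decamer in capitals.

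AEN, chr15:88621296-88621325, plus strand: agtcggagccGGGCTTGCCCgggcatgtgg

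FDXR, chr17:74872995-74873024, minus strand: ggcgggcccgggcaggagcGGGCTTGCCCt

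FAS, chr10:88991299-88991328, plus strand: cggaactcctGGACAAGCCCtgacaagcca

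The decamers of AEN and FDXR had the same letters. They began 34 bases before the AEN start and 11 bases before the FDXR start, whereas that of FAS began 122 bases before the downstream of its starts. Because pyridostatin binds G-quadruplex DNA, the windows were also searched on both strands for 4 runs of at least 3 G with 1 to 7 bases between runs. Such a stretch was in 3 of the 10 windows, 1 each for FAS, FDXR and PMAIP1, and in 25.0% of all windows. The capitals mark the runs, which for FAS are C on the gene's strand and so G on the other.

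FDXR, chr17:74873036-74873057, minus strand: GGGGGcGGGGtttGGGGcGGGG

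FDXR, chr17:74873003-74873025, minus strand: GGGcGGGcccGGGcaggagcGGG

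PMAIP1, chr18:59899889-59899909, plus strand: GGGGcGGGGacaGGGGcGGGG

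FAS, chr10:88990569-88990592, plus strand: CCCtCCCCaaCCCgggcgttCCCC

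The second FDXR stretch overlaps the FDXR decamer. Averaged over genotypes, the pyridostatin log2 fold changes of the 3 genes with such a stretch were 0.91 for FDXR, 0.73 for FAS and 0.00 for PMAIP1. A link between the stretches and the response was not tested. These matches describe letters in the windows and say nothing of binding or of a folded structure.

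The levels of the 10 genes spanned a wide range. Averaged over the 12 libraries, BAX was at 293 FPKM, above 98.0% of the genes tested, followed by TP53I3 (103 FPKM), TNFRSF10B (73.8 FPKM), FDXR (51.0 FPKM) and AEN (47.4 FPKM). FAS and TNFRSF10A followed, both near 17.0 FPKM, and below them were BBC3 (14.8 FPKM), PMAIP1 (9.33 FPKM) and TNFRSF10D (7.75 FPKM), the last above 40.5% of the genes tested. Over the 12 libraries, neighbours in this order had overlapping ranges except at 2 steps, between BAX (232 FPKM at the lowest) and TP53I3 (122 FPKM at the highest) and between AEN (38.5 FPKM at the lowest) and FAS (23.9 FPKM at the highest). Of the 4 receptor genes among the 10, with the decoy TNFRSF10D counted, TNFRSF10B had the most abundant transcript in every group. Receptors outside the 10 were not part of this ranking. These means pool the treatments, and the order of some pairs differed between groups. FDXR was below AEN in all 6 vehicle libraries (means of 33.7 and 39.5 FPKM in wild type) and above it in all 6 pyridostatin libraries (67.0 and 54.9 FPKM in wild type). FAS was below TNFRSF10A in wild type with vehicle (10.8 and 15.0 FPKM) and above it in PARP3-/- with pyridostatin (23.6 and 18.0 FPKM). BBC3 and PMAIP1 overlapped in wild type with vehicle (9.32 and 8.92 FPKM).

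**Figure D1:**
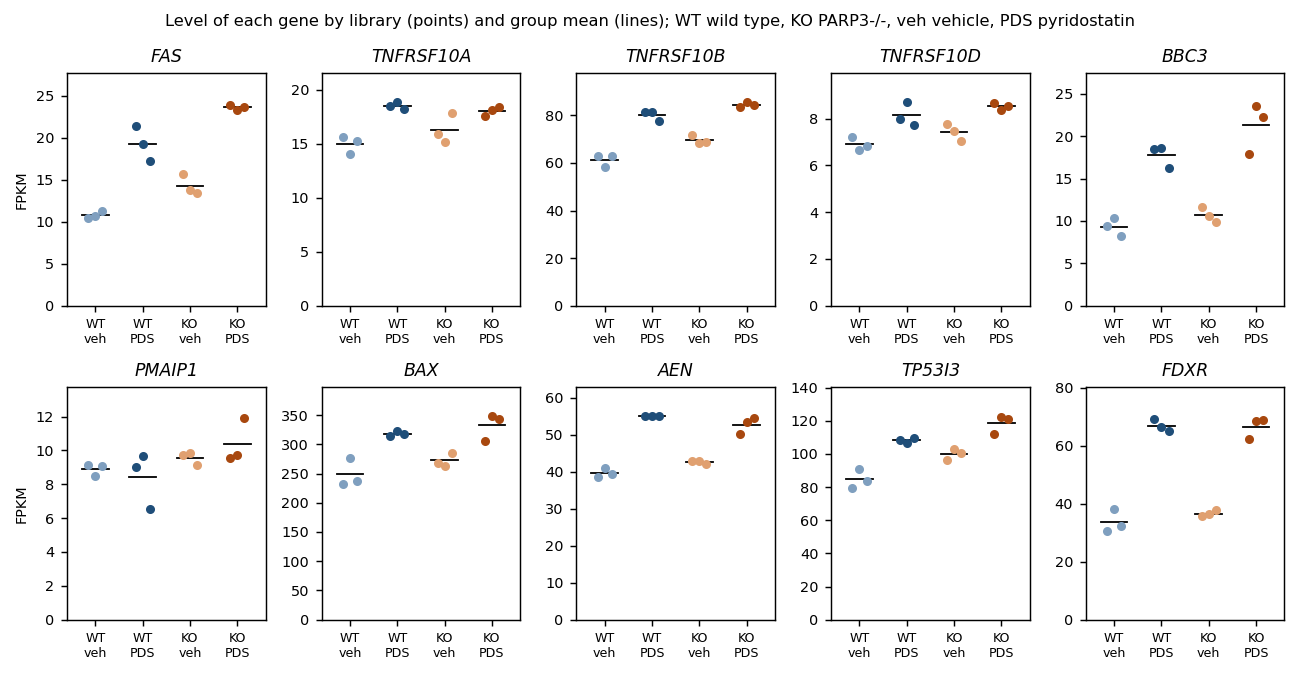
FPKM of each of the 10 genes in the 12 libraries (points) with group means (lines), with WT for wild type, KO for PARP3-/-, veh for vehicle and PDS for pyridostatin, and axes that start at 0. In 9 genes the 3 wild-type pyridostatin libraries lie above the 3 wild-type vehicle libraries, and PMAIP1 is the exception.

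To ask which of the genes respond to pyridostatin in cells with PARP3, treated and vehicle libraries of wild type were compared. By limma on log2(FPKM + 1), with p-values adjusted over all genes tested, 9 of the 10 genes rose at an adjusted p under 0.05, where 2.79% of all tested genes did. The median log2 fold change of the 10 was 0.37, against 0.00 over all genes. In 9 genes all 3 treated libraries were above all 3 vehicle libraries, as in 13.4% of all tested genes. No gene of the 10 also had a log2 fold change above 1, as 0.0421% of all genes did. Over all tested genes 331 rose and 164 fell, and when libraries were shifted to a common median these were 246 and 294.

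FAS, the receptor for FAS ligand, was at 10.4, 10.7 and 11.3 FPKM with vehicle and at 21.4, 19.3 and 17.3 FPKM with pyridostatin in wild type. The groups did not overlap, and the mean was 1.78 times higher (log2 fold change 0.78, SE 0.07, adjusted p = 0.000287 by limma). FAS shares 380 exonic bases with ACTA2, a smooth muscle actin gene on the opposite strand (GENCODE 29). ACTA2 was at 8.29, 9.66 and 7.42 FPKM with vehicle and at 15.6, 15.3 and 14.9 FPKM with pyridostatin in wild type (log2 fold change 0.79, adjusted p = 0.000637 by limma). The libraries were made with a stranded kit, but whether the FPKM calculation used strand is not given in the sources used here, so how many reads the pair exchanged is unknown and its part in the FAS result was not tested.

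TNFRSF10A and TNFRSF10B encode the TRAIL receptors DR4 and DR5, which carry a death domain, and TNFRSF10D encodes a decoy TRAIL receptor whose death domain is truncated. TNFRSF10B was at 62.9, 58.2 and 62.7 FPKM with vehicle in wild type and at 81.2, 81.3 and 77.5 FPKM with pyridostatin (log2 fold change 0.38, SE 0.04, adjusted p = 0.000439 by limma). TNFRSF10A was at 15.7, 14.0 and 15.2 FPKM with vehicle and at 18.5, 18.9 and 18.2 FPKM with pyridostatin (log2 fold change 0.29, adjusted p = 0.0211 by limma). In neither gene did the groups overlap. TNFRSF10A lost its call under 5 of 20 other settings, with adjusted p up to 0.103, among them leaving out any wild-type pyridostatin replicate or wild-type vehicle replicate 3. TNFRSF10D moved from 7.20, 6.65 and 6.83 FPKM to 7.98, 8.73 and 7.72 FPKM (log2 fold change 0.21, adjusted p = 0.0468 by limma), the smallest rise among the 9. It lost its call under 18 of 20 other settings, where its adjusted p went up to 0.244. Leaving out wild-type vehicle replicate 2 was among these 18. The TRAIL receptor genes are related in sequence, and how reads that match several of them were divided is not given in the sources used here.

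BBC3 encodes PUMA, which binds all the main anti-apoptotic BCL2 proteins. It was at 9.36, 10.3 and 8.27 FPKM with vehicle in wild type and at 18.5, 18.6 and 16.3 FPKM with pyridostatin, so the treated mean was 1.91 times the vehicle mean (log2 fold change 0.87, SE 0.11, adjusted p = 0.00122 by limma). PMAIP1 encodes NOXA, a more selective BH3-only protein. It was at 9.17, 8.50 and 9.09 FPKM with vehicle and at 9.01, 9.69 and 6.53 FPKM with pyridostatin, and these groups overlapped. Its log2 fold change was -0.09, with a 95% confidence interval of -0.35 to 0.17, and it became 0.06 when wild-type pyridostatin replicate 3, the lowest library, was left out. BAX, the pore-forming effector, was at 232, 277 and 238 FPKM with vehicle and at 314, 323 and 318 FPKM with pyridostatin (log2 fold change 0.36, adjusted p = 0.0206 by limma). The BAX groups did not overlap, but the call was lost under 6 of 20 other settings, with adjusted p up to 0.141.

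AEN is a p53-induced nuclease that degrades nucleic acids in dying cells. In wild type it was at 38.5, 40.8 and 39.2 FPKM with vehicle and at 54.9, 55.0 and 55.0 FPKM with pyridostatin, and the treated libraries lay closer together than those of any other gene of the 10 (SD 0.0602, n = 3; log2 fold change 0.47, adjusted p = 0.000156 by limma). TP53I3, a quinone oxidoreductase linked to oxidative stress, was at 79.7, 90.7 and 83.4 FPKM with vehicle and at 108, 106 and 110 FPKM with pyridostatin (log2 fold change 0.35, adjusted p = 0.00412 by limma). FDXR, ferredoxin reductase of the mitochondrial electron transfer chain for steroid and iron-sulphur cluster synthesis, was at 30.5, 38.2 and 32.5 FPKM with vehicle and at 69.4, 66.5 and 65.1 FPKM with pyridostatin. The treated FDXR mean was 1.99 times the vehicle mean (log2 fold change 0.97, SE 0.07, adjusted p = 0.00013 by limma), the largest difference among the 10.

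The same comparison was made in PARP3-/- cells, with their own vehicle libraries. There 7 of the 10 genes rose at an adjusted p under 0.05 by limma, where 3.05% of all tested genes did, and the median log2 fold change of the 10 was 0.28. In 8 genes all 3 treated libraries were above all 3 vehicle libraries, as in 16.6% of all tested genes. No gene of the 10 passed both thresholds, as 0.0505% of all genes did.

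FDXR moved from 35.8, 36.3 and 37.7 FPKM to 62.5, 68.6 and 68.8 FPKM in PARP3-/- (log2 fold change 0.85, adjusted p = 0.000177 by limma). BBC3 moved from 11.7, 10.6 and 9.93 FPKM to 17.9, 23.6 and 22.3 FPKM, 1.98 times higher in the mean (log2 fold change 0.92, adjusted p = 0.000831 by limma), with a wider spread (SD 3.00 FPKM, n = 3) than in wild type (SD 1.29 FPKM, n = 3). FAS moved from 15.7, 13.7 and 13.4 FPKM to 23.9, 23.3 and 23.7 FPKM (log2 fold change 0.69, adjusted p = 0.000589 by limma). The groups did not overlap in any of these 3 genes. ACTA2, the neighbour of FAS, again rose with it, from a range of 9.88 to 11.2 FPKM to one of 16.7 to 19.7 FPKM (log2 fold change 0.75, adjusted p = 0.000831 by limma).

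The smaller rises in PARP3-/- cells were those of AEN (log2 fold change 0.30, adjusted p = 0.00134), TNFRSF10B (0.27, adjusted p = 0.00294), TP53I3 (0.24, adjusted p = 0.0225) and BAX (0.28, adjusted p = 0.043), all by limma. AEN went from 42.8, 43.0 and 42.1 FPKM to 50.0, 53.4 and 54.4 FPKM, and TNFRSF10B from 71.7, 68.4 and 68.7 FPKM to 83.3, 85.5 and 84.3 FPKM. TP53I3 went from 96.2, 103 and 101 FPKM to 112, 122 and 121 FPKM, and BAX from 268, 263 and 286 FPKM to 306, 348 and 343 FPKM. All 4 genes were without overlap between the groups. The BAX call was lost under 11 of 20 other settings and the TP53I3 call under 6 of 20.

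Of the other 3 genes, TNFRSF10D missed the threshold in PARP3-/- cells although its groups did not overlap, with 7.77, 7.48 and 7.02 FPKM with vehicle and 8.66, 8.37 and 8.52 FPKM with pyridostatin (log2 fold change 0.18, adjusted p = 0.0743 by limma), and it passed without wild-type vehicle replicate 2 (adjusted p = 0.0414 by limma). TNFRSF10A overlapped, at 15.9, 15.2 and 17.8 FPKM against 17.5, 18.1 and 18.4 FPKM (log2 fold change 0.14, 95% confidence interval 0.01 to 0.27, adjusted p = 0.206 by limma). PMAIP1 overlapped too, at 9.75, 9.82 and 9.16 FPKM against 9.53, 9.72 and 11.9 FPKM, with replicate 3 alone above the vehicle libraries (log2 fold change 0.10, 95% confidence interval -0.16 to 0.36).

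**Figure D2:**
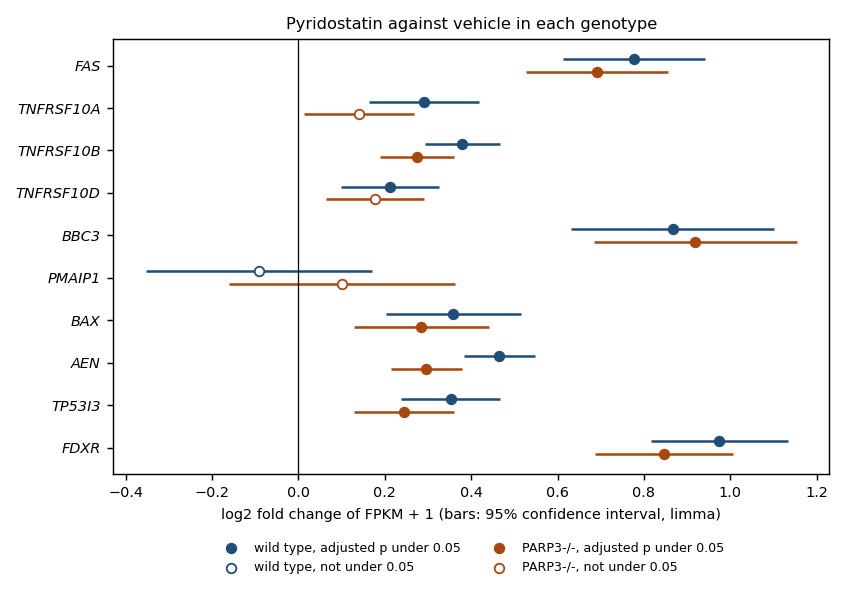
Log2 fold change of FPKM + 1 between pyridostatin and vehicle for each gene in wild type (blue) and PARP3-/- cells (brown), with 95% confidence intervals from limma; filled points have an adjusted p under 0.05. FDXR, BBC3 and FAS lie between 0.69 and 0.97 in both genotypes, and the interval of PMAIP1 spans 0 in both.

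Averaged over the genotypes, and so from the same libraries as the comparisons above, 9 of the 10 genes rose by limma, where 7.71% of all tested genes rose and 6.24% fell. Over all genes 916 rose and 741 fell, or 706 and 1063 when libraries were shifted to a common median. The same 9 genes kept their call under every one of 19 other settings. By size of the rise FDXR ranked 70, BBC3 72 and FAS 95 of 11881 genes, and by p-value FDXR ranked 5. PMAIP1 had a log2 fold change of 0.00 with a 95% confidence interval of -0.18 to 0.19 and ranked 5782 by size, and its sign turned with quantile normalization and with a common median.

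To ask whether the genes differed between genotypes before treatment, PARP3-/- was compared with wild type with vehicle, using the same vehicle libraries as above. All 10 log2 fold changes were positive, as were 6608 of the 11881 over all genes, and 3 of the 10 genes were higher at an adjusted p under 0.05 by limma, where 6.40% of all tested genes were. Over all genes 760 were higher and 358 lower, or 561 and 524 with a common median and 685 and 501 with quantile normalization. In 4 genes (FAS, TNFRSF10B, AEN and TP53I3) all 3 PARP3-/- libraries were above all 3 wild-type libraries, as in 15.0% of all tested genes.

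FAS had the largest genotype difference, 1.32 times in the vehicle means (log2 fold change 0.37, SE 0.07, adjusted p = 0.00952 by limma). ACTA2 differed by 0.31 in the same comparison (adjusted p = 0.0481 by limma). TP53I3 was 1.18 times higher (log2 fold change 0.24, adjusted p = 0.0147 by limma) and TNFRSF10B 1.14 times higher (log2 fold change 0.18, adjusted p = 0.0137 by limma). TP53I3 lost its call under 5 of 20 other settings, which were a common median, only the libraries compared, and without wild-type vehicle replicate 3 or PARP3-/- vehicle replicate 2 or 3. TNFRSF10B lost its call with only the libraries compared and without PARP3-/- vehicle replicate 1. Without wild-type vehicle replicate 2 the count was 6 of 10, with BAX, AEN and FDXR added, and over all genes 1049 of 11874 were then higher.

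With pyridostatin in both arms, FAS alone of the 10 was higher in PARP3-/- than in wild type by limma (log2 fold change 0.28, adjusted p = 0.0348), where 7.07% of all tested genes were higher. Over all genes 840 were higher and 457 lower, or 676 and 596 with a common median. The FAS call was lost under 7 of 20 other settings, including without wild-type pyridostatin replicate 2 or 3 or any PARP3-/- pyridostatin replicate. Without wild-type vehicle replicate 2, and with quantile normalization, TP53I3 was called as well. All 3 PARP3-/- libraries were above all 3 wild-type libraries in 3 genes (FAS, TNFRSF10B and TP53I3), as in 19.3% of all tested genes, whereas those of AEN were all below. PMAIP1 differed by 0.29 with a 95% confidence interval of 0.02 to 0.55 (adjusted p = 0.168 by limma), and FDXR by -0.01 with an interval of -0.17 to 0.15.

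Averaged over the treatments, FAS (log2 fold change 0.33, adjusted p = 0.00131), TP53I3 (0.18, adjusted p = 0.00504) and TNFRSF10B (0.13, adjusted p = 0.00761) were higher in PARP3-/- by limma. These 3 of 10 genes stand against 12.2% of all tested genes that were higher and 6.95% that were lower. Over all genes 1449 were higher and 826 lower, or 1235 and 1133 with quantile normalization and 1055 and 1253 with a common median. Without wild-type vehicle replicate 2, 6 of the 10 were called, with BBC3, BAX and FDXR added, as 1881 of 11874 genes were over the whole table.

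**Figure D3:**
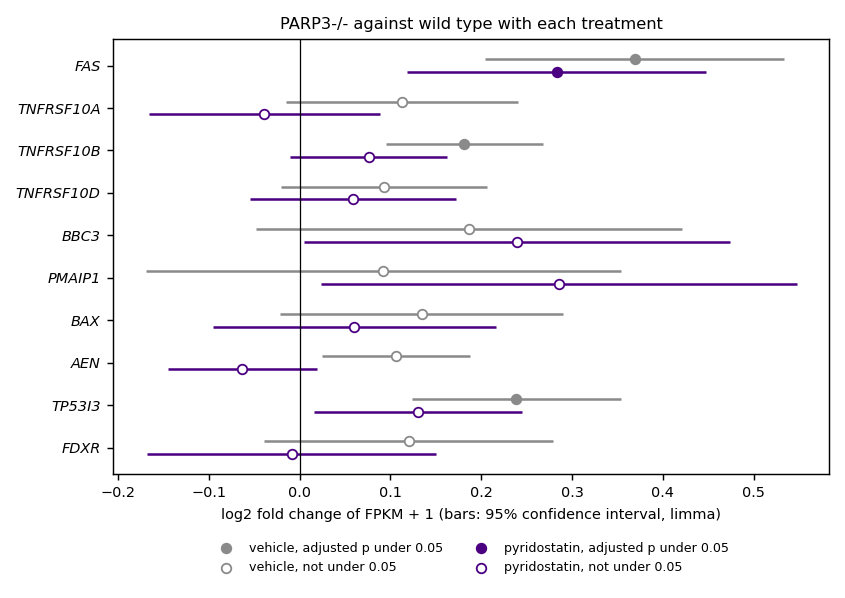
Log2 fold change of FPKM + 1 between PARP3-/- and wild type for each gene with vehicle (grey) and with pyridostatin (purple), with 95% confidence intervals from limma; filled points have an adjusted p under 0.05. FAS is filled with both treatments (0.37 and 0.28), and TNFRSF10B and TP53I3 with vehicle alone.

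Whether PARP3 status changed the response was tested as an interaction, the pyridostatin log2 fold change in PARP3-/- minus that in wild type. By limma 0 of the 10 genes and 0% of all tested genes had an adjusted p under 0.05, and 521 of 11881 genes had an unadjusted p under 0.05. AEN was the only one of the 10 at that unadjusted level, with an interaction of -0.17 (95% confidence interval -0.28 to -0.05, unadjusted p = 0.00829 and adjusted p = 0.999 by limma), that is, a smaller rise in PARP3-/-. The interaction was above 0 in 2 of the 10 genes (1 to 3 when a library was left out) and in 5555 of all 11881, the 2 being BBC3 (0.05, interval -0.28 to 0.38) and PMAIP1 (0.19, interval -0.18 to 0.56). For FAS the interval was -0.32 to 0.15 and for FDXR -0.35 to 0.10, and the data do not exclude differences within these intervals.

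The other genes of the pathway were described from 5 lists. Of the partners of the death receptors, 8 of 11 were tested. With pyridostatin averaged over genotypes 0 were called, where 7.71% of all tested genes rose and 6.24% fell. At an unadjusted p under 0.05 by limma there were 4, beside 3430 of all 11881 genes, and the smallest adjusted p was 0.058. The median log2 fold change of these 8 was 0.02, and other settings called 0 to 2 of them lower. FADD, the adaptor between the receptors and caspase-8, had a log2 fold change of -0.14 (adjusted p = 0.0674 by limma). Averaged over treatments it was the 1 of the 8 that was higher in PARP3-/- (0.16, adjusted p = 0.0342 by limma), where 12.2% of all tested genes were. That count of 1 became 0 or 2 under 9 of 19 other settings. Of these settings 8 left out a library, wild-type vehicle replicate 2 among them. The ligands were at or near the bottom of the table, with FASLG listed at 0 in every library and TNFSF10, which encodes TRAIL, at a mean of 0.44 FPKM and between 0.253 and 0.59 FPKM in each library. TNFRSF10C, the second decoy receptor, was at a mean of 0.163 FPKM.

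Of the other BCL2 family genes, 9 of 12 were tested. With pyridostatin averaged over genotypes 1 rose and 0 fell, where 7.71% of all tested genes rose and 6.24% fell. Without wild-type vehicle replicate 2 or PARP3-/- vehicle replicate 3 the count that rose was 2. The 1 in the main fit was BCL2L1, which encodes the anti-apoptotic BCL-XL (log2 fold change 0.17, adjusted p = 0.00357 by limma). Its partner BAX rose by 0.32 in the same fit. Averaged over treatments, 4 of the 9 were higher in PARP3-/- and 0 lower, where 12.2% of all tested genes were higher and 6.95% lower. Of these 4, 3 encode anti-apoptotic proteins. They were BCL2A1 (log2 fold change 0.91, adjusted p = 2.27e-05), MCL1 (0.60, adjusted p = 2.42e-05) and BCL2L1 (0.14, adjusted p = 0.00626), with the fourth the BH3-only gene BIK (0.64, adjusted p = 5.71e-05), all by limma. Of the anti-apoptotic genes outside the 4, BCL2L2 was not called. BCL2 averaged 0.886 FPKM and was not tested.

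MCL1, whose protein is bound by both PUMA and NOXA, was at 80.6, 75.9 and 87.6 FPKM in wild type with vehicle and at 138, 125 and 113 FPKM in PARP3-/- with vehicle. With pyridostatin it was at 76.9, 84.4 and 77.4 FPKM in wild type and at 123, 123 and 112 FPKM in PARP3-/-, so the genotypes did not overlap with either treatment. Its pyridostatin log2 fold change was -0.05 (adjusted p = 0.586 by limma). The ratio of BBC3 to MCL1 in FPKM, chosen after the values were seen and given as a description, was 0.0944 to 0.136 in wild type with vehicle and 0.0844 to 0.0877 in PARP3-/- with vehicle. With pyridostatin it was 0.211 to 0.24 in wild type and 0.146 to 0.2 in PARP3-/-. The ratio was thus higher with pyridostatin in both genotypes and, with either treatment, lower in each PARP3-/- library than in each wild-type library.

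Of the apoptosome, caspase and inhibitor genes, 13 of 13 were tested. With pyridostatin averaged over genotypes 0 rose and 1 fell, where 7.71% of all tested genes rose and 6.24% fell. The 1 was BIRC5, which encodes survivin and is highest in dividing cells (log2 fold change -0.22, adjusted p = 0.00473 by limma). Without wild-type vehicle replicate 1 or 2 it was 1 that rose, and 2 fell with a common median and without wild-type vehicle replicate 2 or wild-type pyridostatin replicate 2. Between genotypes 2 were higher in PARP3-/- and 1 was lower, where 12.2% of all tested genes were higher and 6.95% lower. The higher genes were the inhibitors BIRC3 (0.32, adjusted p = 0.000171 by limma) and BIRC2 (0.13, adjusted p = 0.00623 by limma). The lower gene was AIFM1 (-0.11, adjusted p = 0.00947 by limma).

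Of 16 other genes linked to p53 or to apoptosis, not all of them p53 targets, 13 were tested. With pyridostatin averaged over genotypes 6 rose and 1 fell by limma, where 7.71% of all tested genes rose and 6.24% fell. PHLDA3, an inhibitor of AKT signalling, rose by 0.81 (adjusted p = 5.27e-06) and TP53INP1, a stress protein that acts with p53, also by 0.81 (adjusted p = 2.84e-05), both by limma. TRIAP1, which restrains apoptosis, rose by 0.45, and TRAF4 by 0.41. The gene that fell was TNFRSF6B, a soluble decoy for FAS ligand, at a mean of 1.87 FPKM (-0.34, adjusted p = 0.0189 by limma). Other settings gave 0 to 2 lower, among them without wild-type vehicle replicate 1 or 2 or PARP3-/- pyridostatin replicate 2. The median of the 13 was 0.14, below the 0.32 of the 10 genes and above the 0.00 of all genes tested. Between genotypes 1 of the 13 was higher in PARP3-/- and 1 lower, where 12.2% of all tested genes were higher and 6.95% lower. The higher gene was TP53INP1 (0.29, adjusted p = 0.0103 by limma) and the lower gene PERP (-0.29, adjusted p = 0.000184 by limma). Other settings gave 0 to 2 higher, with changes also without wild-type vehicle replicate 2 or 3, and 1 to 3 lower.

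Of 16 genes for regulators of p53 and its arrest or repair targets, all were tested. With pyridostatin averaged over genotypes 14 rose and 0 fell by limma, where 7.71% of all tested genes rose and 6.24% fell. The median of the 16 was 0.53. BTG2 rose by 1.14 and CDKN1A, the CDK inhibitor p21, by 1.10, both by more than any of the 10 death genes, and SESN1 and SESN2 rose by 0.92 and 0.79. Averaged over treatments 6 of the 16 genes were higher in PARP3-/- and 1 was lower, where 12.2% of all tested genes were higher and 6.95% lower. The lower gene was GDF15 (-0.19, adjusted p = 0.0231 by limma). With a common median and in several fits that left out a library these 2 counts of the list moved by over 1.5 times, over a range of 2 to 7 higher and 0 to 2 lower. Without wild-type vehicle replicate 2 the lower count was among those that moved.

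**Figure D4:**
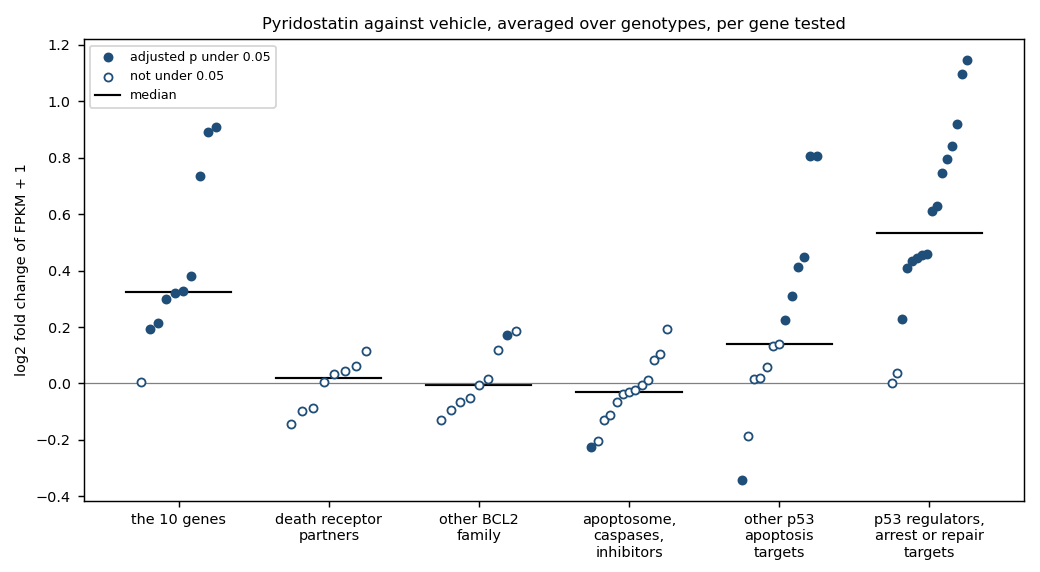
Log2 fold change of FPKM + 1 between pyridostatin and vehicle, averaged over genotypes, for each tested gene of the 10 and of the 5 lists, with filled points at an adjusted p under 0.05 by limma and lines at list medians. The medians are 0.32 for the 10 genes, 0.02 for the death receptor partners and 0.53 for the regulators of p53 and its arrest or repair targets.

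The 10 genes varied together over the 12 libraries, apart from PMAIP1. As a description over libraries that share the 4 conditions, Pearson's r between a gene and the mean standardized level of the other 9 was 0.825 for TNFRSF10A and 0.901 to 0.971 for the other 8 genes, but 0.192 for PMAIP1. The mean standardized level of the 10, in SD units over the 12 libraries, was -1.13, -1.08 and -1.15 in wild type with vehicle and -0.35, -0.49 and -0.42 in PARP3-/- with vehicle. With pyridostatin it was 0.66, 0.80 and 0.24 in wild type and 0.70, 1.03 and 1.19 in PARP3-/-. Wild-type pyridostatin replicate 3 was the lowest of the treated libraries, and all 6 treated libraries were above all 6 vehicle libraries.

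Outside the 10 genes, the tested genes with the profile most like their mean standardized level were PDGFA (r = 0.983), SULF2 (r = 0.982), PLXNB2 (r = 0.980), PLEKHG3 (r = 0.979) and DYRK1B (r = 0.976), over 12 libraries. PDGFA, a growth factor chain, was at 5.83, 5.79 and 5.35 FPKM in wild type and at 7.37, 7.14 and 7.23 FPKM in PARP3-/- with vehicle, and at 8.78, 9.24 and 8.57 FPKM and 10.1, 10.8 and 10.6 FPKM with pyridostatin. Its 4 groups did not overlap and followed the order of the group means of FAS, TNFRSF10B, TNFRSF10D, BBC3, BAX and TP53I3. This is no separate result, because PDGFA was picked for its correlation with the 10 genes over the same libraries.

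The other protein-coding genes that overlap the 10 on the opposite strand were not called with pyridostatin. RHOBTB2 shares 67 exonic bases with TNFRSF10B and had pyridostatin log2 fold changes of -0.04 in wild type and -0.09 in PARP3-/- (adjusted p = 0.709 and 0.324 by limma). FAM228B shares 80 exonic bases with TP53I3 and had -0.11 and -0.18 (adjusted p = 0.534 and 0.277 by limma). Between genotypes, averaged over treatments, FAM228B was higher in PARP3-/- (0.21, adjusted p = 0.0379 by limma), as TP53I3 was. ACTA2 was higher too (0.29, adjusted p = 0.00697 by limma), as FAS was, and RHOBTB2 was not called (0.04, adjusted p = 0.506 by limma). The part of shared reads in these genotype differences was not tested. TNFRSF10A overlaps 2 non-coding genes by 224 and 266 exonic bases, which were not used here, BBC3 overlaps 2 microRNA genes, and PMAIP1, BAX, AEN, FDXR and TNFRSF10D overlap no annotated gene.

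Among pairs of opposing function, the ratio of the signalling receptor TNFRSF10B to the decoy TNFRSF10D in FPKM was 8.74 to 9.18 in wild type with vehicle and 9.31 to 10.2 with pyridostatin, and 9.15 to 9.78 and 9.62 to 10.2 in PARP3-/- cells. The wild-type ranges were only narrowly apart (9.18 against 9.31) and the PARP3-/- ranges overlapped. The ratio of BAX to BCL2L1 was 2.59 to 2.89 with vehicle and 3.08 to 3.16 with pyridostatin in wild type. In PARP3-/- it was 2.63 to 2.84 against 2.83 to 3.04, where only the edges of the ranges overlapped. These ratios are descriptions without a test, and whether they moved differently in the 2 genotypes was not tested.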

How the data were processed

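RNA was sequenced from 12 libraries of A549 cells (4 groups of 3, by genotype and treatment in the labels) with a stranded mRNA kit, in single-end reads of 75 bases. The authors deposited 1 table of FPKM values with a column per library. Per the submitters' processing notes, bcl2fastq 2.16, STAR 2.5 and Cufflinks (no version) were used, and hg19 and mm9 are named with no role; the annotation is not given in the sources used here. FPKM values divide out transcript length and total mapped reads, so changes in a few abundant genes shift all others, and read counts and depth were not at hand. The study tested counts; the table holds FPKM, so limma was used here.

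Values were used as deposited, on the scale log2(FPKM + 1), which understates fold changes of low genes. limma 3.58.1 in R 4.3.3 (lmFit, eBayes with a trend) fitted 1 model of the 4 groups over genes that averaged 1 FPKM or more, with Benjamini-Hochberg adjustment over all 11881 and calls at an adjusted p under 0.05, and the procedure was tested on simulated data. The 10 genes and the 5 lists were chosen with earlier results of these data known, and some genes are not reported here. From each list, up to 4 genes with the smallest pyridostatin p averaged over genotypes, among those called in any comparison, were named, with PARP3 and genes at the ends of a range; the 5 genes most like the 10 were ranked by Pearson's r. TNFRSF6B, PERP and GDF15 complete small counts and were named after their values were seen; ACTA2, RHOBTB2 and FAM228B overlap a gene of the 10. Alternatives were a pseudocount of 0.1, no filter or a filter at 5 FPKM, libraries set to equal quantiles or to a common median, no trend, a replicate block, only the libraries compared, and each library left out in turn. Promoter windows came from RefSeq (GRCh38.p14) and overlaps from GENCODE 29 (GRCh38). Python 3.11.15 with pandas 2.3.3 and matplotlib 3.10.9 handled sequences and figures.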

Additional observations from a re-analysis of the deposited data

How the results depend on the processing

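The count of genes that rose with pyridostatin averaged over genotypes was 9 under each of 19 other settings, and 0 interactions were called under any. Of 70 values (10 genes in 7 comparisons), 46 kept direction and side of the threshold under all settings run. In 1370 refits, 1281 kept both, 61 lost and 12 gained a call, and 16 turned sign; the cause was not tested. With only the libraries compared, the counts called became 5 for pyridostatin in wild type, 1 for genotype with vehicle and 0 for genotype with pyridostatin, beside 56, 358 and 989 genes called higher over the whole table. The last was also 0 with no filter and 2 with quantile normalization. Leaving out 1 library gave 6 to 8 for pyridostatin in wild type and 5 to 8 in PARP3-/-. For genotype it gave 2 to 6 with vehicle, 0 to 2 with pyridostatin and 3 to 6 averaged over treatments. The 6 with vehicle and the 6 averaged over treatments came from leaving out wild-type vehicle replicate 2.

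Sign changes were in values near 0. PMAIP1 averaged over genotypes was -0.0208 with quantile normalization and -0.0217 with a common median, and -0.045 to 0.0812 with 1 library left out. PMAIP1 in wild type was -0.192 to 0.0608 with 1 left out, FDXR for genotype with pyridostatin was 0.00861 with quantile normalization and -0.0325 to 0.036 with 1 left out, and AEN for genotype averaged over treatments was -0.0117 with a common median. The interaction with 1 library left out was -0.0241 to 0.167 for BBC3 and -0.0688 to 0.0112 for TNFRSF10D.

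Deviations of same-numbered libraries from their group means had correlations from -0.12 to 0.216, without a reference from libraries of different numbers. The numbers are not taken to pair the libraries, and whether they do was not tested. With the replicate block the counts were 8 for pyridostatin in wild type (TNFRSF10D lost its call), 7 in PARP3-/-, 9 averaged over genotypes, 3 for genotype with vehicle, 1 with pyridostatin, 3 averaged and 0 interactions. With 3 libraries a group and no read counts, the error of low values cannot be split into counting and culture error.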
